A study of Homo sapiens with 6 samples.

Results

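The genes of human chorionic gonadotropin (hCG) and luteinizing hormone were examined in HGC-27, an established line of human gastric cancer cells, with and without the peptide GLUP. The 8 genes were found by symbol among the 62443 genes of the deposited table. They were CGA, which encodes the alpha subunit, LHB, which encodes the beta subunit of luteinizing hormone, and the hCG beta genes CGB1, CGB2, CGB3, CGB5, CGB7 and CGB8. Of the 8, 6 were above 0 in at least 1 library. Because the CGB genes are near-identical copies, they were described singly and as a sum.

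hCG is a secreted glycoprotein hormone made of a common alpha subunit, shared with luteinizing, follicle-stimulating and thyroid-stimulating hormone, and a beta subunit that sets its receptor. It is the hormone of early pregnancy, made by the syncytiotrophoblast of the placenta, and it acts through the receptor LHCGR. CGB3, CGB5, CGB7 and CGB8 encode the classical beta subunit, while CGB1 and CGB2 are later duplicates whose promoter and first exon differ from those of the others. Some carcinomas secrete the free beta subunit without the alpha subunit. CGB5 is also among the genes that the study singled out as targets of TEAD transcription factors, the DNA-binding factors at the end of the Hippo pathway.

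RNA-sequencing was compared between 3 control libraries (Con) and 3 libraries from cells treated with GLUP, a cyclic peptide with repeated TEAD4-binding elements of the cofactor VGLL4, designed to link TEAD4 molecules. The sources used here give differing durations of treatment, and none is assumed. The labels list Con as untreated, whereas the methods describe a negative control given the stock buffer alone. All 6 libraries come from 1 cell line, and the labels do not say that they came from separate cultures. The methods mention biological replicates without tying them to these libraries, so that p-values measure the spread between these samples, which may be technical. Values are FPKM, fragments scaled to transcript length and to the mapped fragments of the library, which summed to between 909735 and 965147 per library. The number of reads behind them is unknown.

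Of 11 gastric epithelial marker genes, 4 were listed at 0 in all 6 libraries (among them TFF1 and TFF2, stomach trefoil factors), and CDH1, the epithelial cadherin, was at 0.0687, 0.0799 and 0.0148 FPKM in Con and listed at 0 in the 3 GLUP libraries. EPCAM, CLDN18 and MUC5AC were at most 0.124 FPKM, each with a lower mean in GLUP and overlapping groups. The keratin genes KRT8, KRT18 and KRT19 were between 0.764 and 2.51 FPKM, and VIM, the mesenchymal filament vimentin, was between 222.2 and 387.2 FPKM. In all 3 keratin genes the GLUP libraries lay wholly above the Con libraries (log2 differences 0.61, 1.06 and 0.55, with adjusted p of 0.364, 0.261 and 0.378 by limma), and in FN1, the mesenchymal gene of fibronectin, wholly below (-1.13, adjusted p 0.281). Over all genes tested, 6.61% lay wholly above and 17.4% wholly below. After trends in GC content and length were removed, as described below, the keratin differences were 0.29, 0.78 and 0.16, and that of FN1 was -0.97. CDH2, the mesenchymal cadherin, was at 0.0508, 0.00616 and 0.0133 FPKM in Con and listed at 0 in GLUP. Their part in the results was not tested. Con replicate 2 stood apart from the other libraries. Its mean Pearson correlation with the other 5, across 15802 genes, was 0.896, against 0.935 to 0.944 for the others.

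The copies are first shown by sequence, because their likeness sets what a value of a single copy can mean. Over the 495 coding bases of CGB3, CGB5, CGB7 and CGB8, only 6 positions differed among the copies. The coding sequences of CGB5 and CGB8 were identical, CGB3 differed from CGB5 at 1 base, and CGB7 differed from CGB5 at 5 bases. The stretch from coding base 39 to 98, counted from the first base of the start codon, holds 3 of the positions, shown in capitals. The sequences come from the GENCODE release 44 transcripts lifted to GRCh37.

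CGB5: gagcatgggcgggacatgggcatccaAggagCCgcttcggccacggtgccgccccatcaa

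CGB7: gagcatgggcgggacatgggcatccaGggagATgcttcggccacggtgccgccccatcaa

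In this stretch CGB3 and CGB8 have the bases of CGB5. Of all windows of 100 bases along the CGB5 transcript, 71.5% were found unchanged in another member, compared with 67.1% for CGB8, 62.2% for CGB3, 57.7% for CGB1, 54.7% for CGB2 and 13.6% for CGB7, whose canonical transcript is longer (2151 bases, against 877 for CGB5). For LHB and CGA the share was 0%. The coding sequence of LHB was 78.4% identical to that of CGB5, and the transcripts of CGB1 and CGB2 were 95.5% identical to each other.

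The stretches just before the transcription start set the members apart in another way. They are shown for the 100 bases up to the start (150 bases for CGA), from RefSeq promoters on GRCh38.p14, in which all 8 members were matched. Capitals mark the cyclic AMP response element TGACGTCA, through which factors of the CREB family act on the alpha gene in placenta, and the TATA box TATAAA.

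CGA, chr6:87095107-87095256, minus strand: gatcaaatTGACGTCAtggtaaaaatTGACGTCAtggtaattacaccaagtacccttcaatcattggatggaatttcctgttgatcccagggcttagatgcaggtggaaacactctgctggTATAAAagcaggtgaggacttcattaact

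CGB1, chr19:49036896-49036995, minus strand: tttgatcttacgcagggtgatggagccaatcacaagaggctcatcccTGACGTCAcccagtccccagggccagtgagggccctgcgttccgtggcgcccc

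CGB2, chr19:49031790-49031889, plus strand: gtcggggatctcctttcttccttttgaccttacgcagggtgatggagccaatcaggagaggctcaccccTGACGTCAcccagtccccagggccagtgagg

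CGB5, chr19:49043748-49043847, plus strand: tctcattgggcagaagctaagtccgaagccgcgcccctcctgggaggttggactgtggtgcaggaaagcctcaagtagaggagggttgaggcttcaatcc

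CGB8, chr19:49049112-49049211, minus strand: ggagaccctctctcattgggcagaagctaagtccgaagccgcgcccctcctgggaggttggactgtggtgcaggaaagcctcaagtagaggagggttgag

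CGB7, chr19:49057750-49057849, minus strand: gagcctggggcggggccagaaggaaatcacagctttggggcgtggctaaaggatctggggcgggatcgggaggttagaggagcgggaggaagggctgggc

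The motifs were searched on both strands from 250 bases before to 50 bases after each start. TGACGTCA was present at 2 places before CGA, 142 to 135 and 124 to 117 bases before the start, and at 1 place before CGB1 (53 to 46 bases) and CGB2 (31 to 24 bases). It was found in 1.85% of 35116 promoters of the same length. TATAAA was found before CGA alone among the members, 29 to 24 bases before the start, and in 11.53% of all promoters. GGAATG, the letters of the TEAD motif, were in none of the 8 windows and in 14.03% of all promoters. A match describes the letters only, and the absence of one in this window says nothing about binding elsewhere.

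The alpha subunit and LHB were examined first. CGA (ENSG00000135346, chr6:87795216-87804824, minus strand, GRCh37) was listed at 0 in all 6 libraries. LHB (ENSG00000104826, chr19:49519237-49520348, minus strand) was likewise listed at 0 in all 6. The most common step of low values may be the worth of 1 fragment. It would be 0.0921 to 0.111 FPKM on a transcript of the length of CGA and 0.125 to 0.150 FPKM on LHB. Values under 1 step were also listed, such as CGB5 at 0.712 steps in Con replicate 2, so the step is no lower limit. No transcript of the alpha subunit was thus listed in either group, and a difference between the groups could not be computed.

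All 6 CGB genes were above 0, at low levels. CGB1 had a mean of 1.32 FPKM and was the only member to reach 1 FPKM. It was also the highest copy in 6 of 6 libraries. The order of the other 5 changed from library to library, and CGB2, CGB3, CGB5 and CGB8 were each listed at 0 in 1 library.

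**Figure D1:**
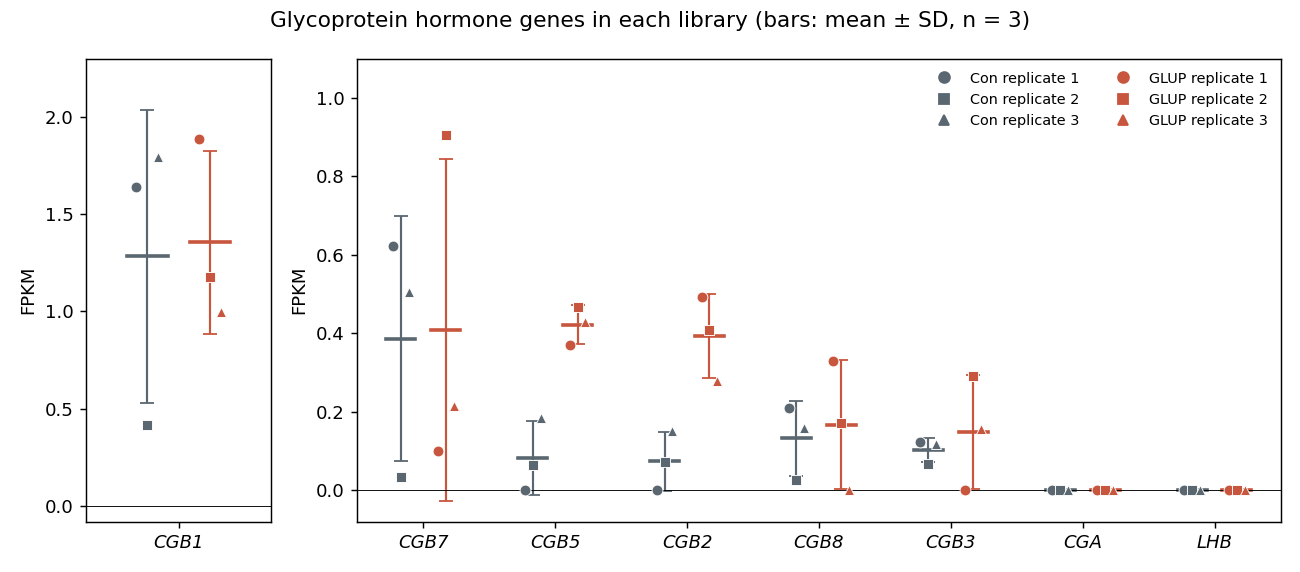
FPKM of the 8 genes in each of the 3 Con and 3 GLUP libraries (marker shape gives the replicate), with bars for the mean ± SD (n = 3). CGB1 has its own axis, the 3 GLUP values of CGB2 and of CGB5 lie above the 3 Con values, and CGA and LHB are at 0 throughout.

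CGB5 (ENSG00000189052, chr19:49547105-49548568, plus strand) had values of 0, 0.0639 and 0.185 FPKM in replicates 1, 2 and 3 of Con. In GLUP replicates 1, 2 and 3 it was at 0.371, 0.468 and 0.428 FPKM. Every GLUP value of CGB5 lay above every Con value, with means of 0.0829 ± 0.0939 FPKM in Con and 0.422 ± 0.0488 FPKM in GLUP (SD, n = 3). On the log2(FPKM + 0.1) scale, which understates changes of low genes, CGB5 was higher in GLUP by 1.64 (SE 0.48, 95% interval 0.56 to 2.71, limma). The difference did not pass the threshold, with an adjusted p of 0.255 (Benjamini-Hochberg over all genes tested, unadjusted p 0.00715). In units of the common step these values correspond to 0, 0.712 and 2.24 steps in Con and to 4.70, 6.27 and 5.30 steps in GLUP.

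CGB2 (ENSG00000104818, chr19:49535147-49536495, plus strand), a copy with the CREB element, was likewise higher in GLUP. It was at 0, 0.0723 and 0.150 FPKM in the Con libraries and at 0.493, 0.409 and 0.279 FPKM in the GLUP libraries. The groups did not overlap, with means of 0.0743 ± 0.0753 FPKM in Con and 0.394 ± 0.108 FPKM in GLUP (SD, n = 3). The log2 difference was 1.58 (SE 0.48, 95% interval 0.50 to 2.65, limma), with an adjusted p of 0.261 and an unadjusted p of 0.00874. In an exact permutation test of the FPKM values, two-sided, CGB2 and CGB5 each gave p = 0.1, the smallest that 3 libraries against 3 allow.

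CGB1 (ENSG00000267631, chr19:49538826-49540152, minus strand), the other copy with the element, had overlapping groups. Its FPKM was 1.64, 0.419 and 1.79 in Con and 1.88, 1.18 and 1.00 in GLUP. The lowest value was that of Con replicate 2, and the remaining Con values lay within the range of the GLUP libraries. The means were 1.28 ± 0.753 and 1.35 ± 0.468 FPKM (SD, n = 3), and the log2 difference was 0.24 (SE 0.52, 95% interval -0.95 to 1.42, limma, adjusted p 0.823). Without Con replicate 2 the log2 difference of CGB1 was -0.37.

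The remaining classical copies showed no difference beyond the spread. CGB3 (ENSG00000104827, chr19:49526126-49527590, minus strand) was at 0.124, 0.0675 and 0.118 FPKM in Con and at 0, 0.290 and 0.157 FPKM in GLUP. CGB8 (ENSG00000213030, chr19:49550895-49552368, minus strand), with the coding sequence of CGB5, was at 0.210, 0.0269 and 0.160 FPKM in Con and at 0.330, 0.173 and 0 FPKM in GLUP. CGB7 (ENSG00000196337, chr19:49557531-49562117, minus strand) was at 0.622, 0.0327 and 0.505 FPKM in Con and at 0.101, 0.906 and 0.215 FPKM in GLUP. In each of these 3 genes the groups overlapped, and the libraries of 1 group differed from each other by more than the group means did. The log2 differences were 0.10 for CGB3 (95% interval -1.21 to 1.41), 0.06 for CGB8 (-1.38 to 1.51) and 0.04 for CGB7 (-1.69 to 1.77), with adjusted p of 0.939, 0.966 and 0.982 (limma). Intervals of this width leave room for changes of more than 2-fold either way, so these values do not show that the copies behaved alike in both groups.

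Set against all genes, 2 of the 6 members tested lay wholly above Con in GLUP and 0 wholly below. Among the 15802 genes tested, the GLUP libraries lay wholly above the Con libraries in 6.61% and wholly below in 17.4%. The same 2 members had an unadjusted p under 0.05 in the higher direction, compared with 3.95% of all genes, and 0 did in the lower direction, compared with 12.4%. CGB2 and CGB5 reached the minimum of 0.1 FPKM for testing through the GLUP libraries alone, as their Con means were 0.0743 and 0.0829 FPKM. The minimum therefore favours this direction, and nothing is read from these shares. No member and no other gene passed an adjusted p under 0.05 (0% of 15802, limma), and 2584 genes had an unadjusted p under 0.05, of which 624 were higher in GLUP. That split depended on the scaling: with the libraries rescaled to a common upper quartile, 1325 of 2301 such genes were higher. The median log2 difference was 0.17 over the 6 members and -0.24 over all genes tested. Relative to that median, CGB5 was higher by 1.88, CGB2 by 1.82, CGB1 by 0.48, CGB3 by 0.34, CGB8 by 0.30 and CGB7 by 0.28. Over the 1575 tested genes richest in GC, which hold all 6 members, the median was 0.40.

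Since reads of identical stretches can be given to any copy, the copies were next summed. The 6 CGB genes summed to 2.59, 0.682 and 2.91 FPKM in Con and to 3.18, 3.42 and 2.08 FPKM in GLUP. The groups overlapped, as GLUP replicate 3 was below Con replicates 1 and 3. The means were 2.06 ± 1.21 FPKM in Con and 2.89 ± 0.716 FPKM in GLUP (SD, n = 3). The log2 difference of the sum was 0.66 (SE 0.53, 95% interval -0.52 to 1.85, limma), with an adjusted p of 0.510 and an exact permutation p of 0.5. The value rested on 1 library: without Con replicate 2 the log2 difference of the sum was 0.04 (adjusted p 0.967, limma).

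**Figure D2:**
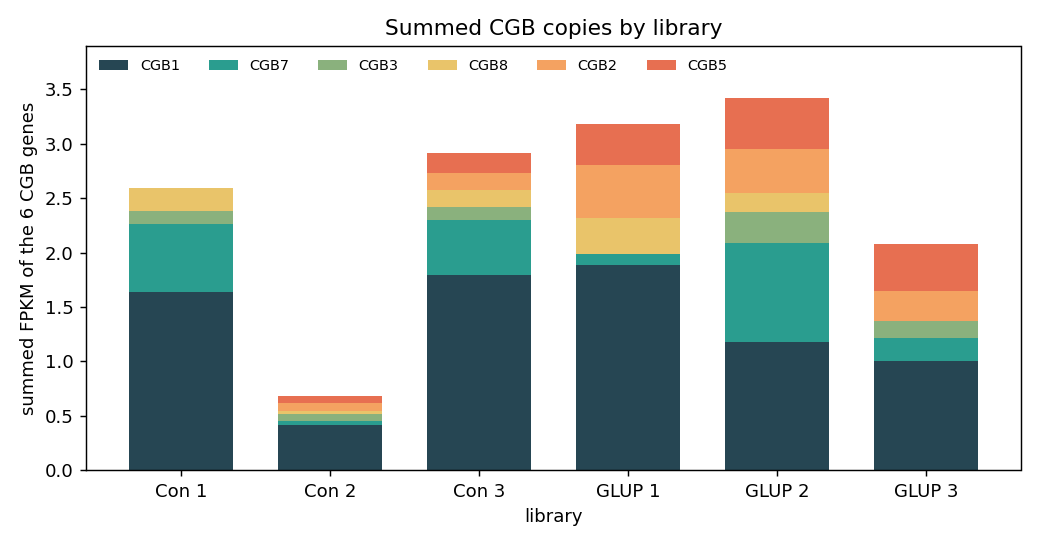
Stacked bars of the FPKM of the 6 CGB genes in each library, which add up to the summed CGB level. Con replicate 2 has the lowest sum, at 0.682 FPKM, and the GLUP libraries, at 2.08 to 3.42 FPKM, overlap with the other Con libraries.

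Sums over fewer copies gave different pictures. The copies that differ from CGB5 by at most 1 coding base, CGB3, CGB5 and CGB8, summed to 0.334, 0.158 and 0.463 FPKM in Con and to 0.700, 0.930 and 0.585 FPKM in GLUP. These groups did not overlap, and the log2 difference was 1.05 (SE 0.40, 95% interval 0.15 to 1.96, limma), with an adjusted p of 0.278 and an exact permutation p of 0.1. Of these copies only CGB5 had separate groups singly, so the sum is not a result apart from CGB5. Among all genes tested, 6.61% lay wholly above. With CGB7 added, the sums were 0.956, 0.191 and 0.967 FPKM in Con and 0.801, 1.84 and 0.80 FPKM in GLUP, and the groups overlapped (log2 difference 0.75, adjusted p 0.489, limma). CGB1 and CGB2 together summed to 1.64, 0.491 and 1.94 FPKM in Con and to 2.38, 1.59 and 1.28 FPKM in GLUP, also with overlap. Adding LHB changed no value, as it was listed at 0.

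The make-up of the sum was compared as well, because a share within a library does not depend on how the library was scaled. CGB1 made up 63.1%, 61.4% and 61.6% of the summed CGB FPKM in Con, compared with 59.3%, 34.4% and 48.1% in GLUP. CGB5 made up 0%, 9.36% and 6.35% in Con and 11.7%, 13.7% and 20.6% in GLUP. CGB2 made up 0%, 10.6% and 5.17% in Con and 15.5%, 11.9% and 13.4% in GLUP. For these 3 copies the groups did not overlap, with CGB1 lower and CGB2 and CGB5 higher in GLUP. The shares of a sum are tied to each other, so these are not separate results. The share of CGB7 ran from 3.17% to 26.5%, both ends in GLUP libraries. CGB3 and CGB8 stayed at or below 10.4%.

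**Figure D3:**
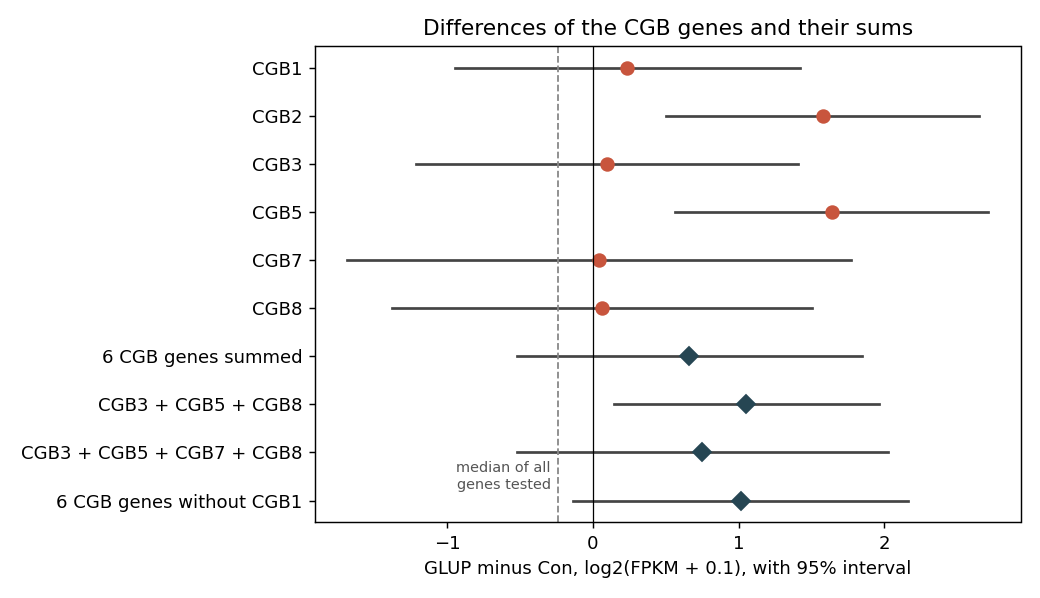
Difference between GLUP and Con on the log2(FPKM + 0.1) scale for each CGB gene (circles) and for sums of copies (diamonds), with 95% intervals from limma. The dashed line marks the median of all genes tested, at -0.24, and only the intervals of CGB2, CGB5 and the sum of CGB3, CGB5 and CGB8 lie wholly above 0. That sum contains CGB5 and is not separate from it.

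Base composition moved with these values. All 6 CGB transcripts had a GC content between 63.3% and 65.6%, which put them among the 1575 tested genes richest in GC (60.6% to 74.8%). Over those genes the median log2 difference was 0.40, and the GLUP libraries lay wholly above the Con libraries in 14.3% of genes. Over the 1575 genes poorest in GC the median was -0.69. The Spearman correlation across genes between the deviation of a library and GC content was -0.279, -0.537 and 0.282 in Con replicates 1, 2 and 3, and 0.337, 0.425 and 0.252 in the GLUP libraries. After a trend in GC content and length was removed from each library, the log2 difference was 1.23 for CGB5 (unadjusted p 0.0309), 1.22 for CGB2 (unadjusted p 0.0327) and 0.25 for the sum of the 6 genes (limma). Adjusted over all genes, the p of both copies was then 0.345 to 0.346.

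**Figure D4:**
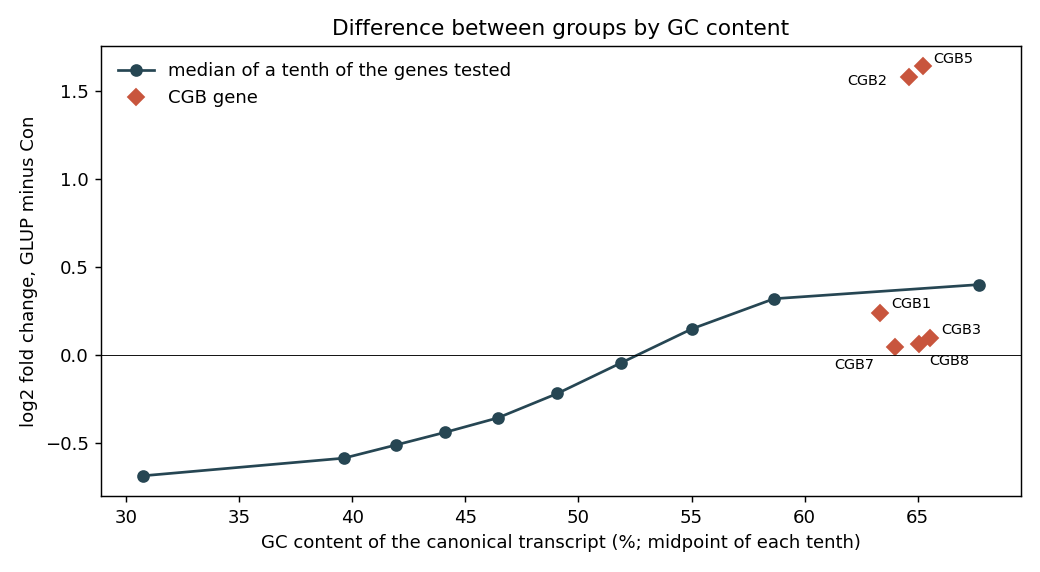
Log2 difference between GLUP and Con against GC content: circles joined by a line are medians over 10 equal bins of the tested genes, and diamonds are the 6 CGB genes. The medians climb from -0.69 to 0.40, with CGB2 and CGB5 far above the line and the other 4 copies below it.

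The surroundings of the cluster were examined next. LHB and the CGB genes lie within 42881 bases on chromosome 19, between RUVBL2, which ends 9 bases from LHB, and NTF4. Of 16 protein-coding genes that start within 100 kb of the cluster, 11 were tested and 3 had GLUP libraries wholly above the Con libraries. These were GYS1, muscle glycogen synthase (log2 difference 0.91, unadjusted p 0.0265), SNRNP70, a protein of the U1 splicing particle (0.82, unadjusted p 0.0306), and BAX, an activator of apoptosis (1.12, unadjusted p 0.0340). None passed the adjusted threshold (adjusted p 0.277 to 0.285, limma), and the median over the 11 was 0.49, with 2 lower. Over all genes tested the median was -0.24 and 6.61% lay wholly above, and over the 1575 genes richest in GC these were 0.40 and 14.3%. RUVBL2, a helicase of chromatin remodelling complexes, was at 163.8, 32.5 and 196.2 FPKM in Con and at 169.6, 163.5 and 151.8 FPKM in GLUP. FTL, the ferritin light chain, was the highest neighbour, at 791.8 to 11436 FPKM, and like RUVBL2 and the CGB sum it was lowest in Con replicate 2.

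**Figure D5:**
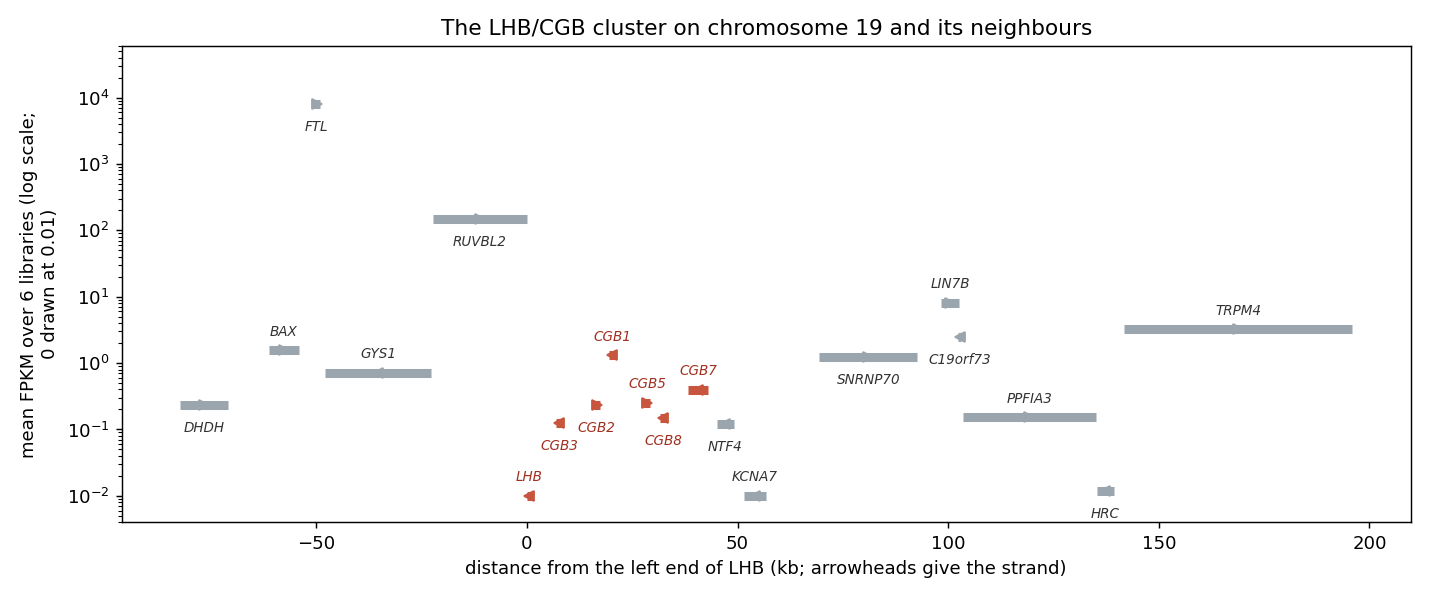
Mean FPKM over the 6 libraries (log axis, 0 drawn at 0.01) of LHB and the CGB genes (red) and of neighbouring protein-coding genes (grey), by distance from the left end of LHB. The members lie below the highly expressed RUVBL2 and FTL, and LHB is at 0.

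Overlapping genes limit some copies. A readthrough gene, ENSG00000267335, spans CGB3 and CGB1 on their strand and CGB2 on the opposite strand, and was at most 0.134 FPKM. CGB7 overlaps 2 further genes, both listed at 0 in all libraries. Strand-specific counting was not stated, so reads of CGB2 and of the readthrough gene cannot be told apart.

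Other genes of the hormone family were mostly listed at 0, as were 30999 of the 62443 genes of the series. Of 7 hormone subunits and receptors, 5 were listed at 0 in all libraries, namely FSHB, TSHB and GPHB5, which encode beta subunits, and LHCGR and FSHR, which encode gonadotropin receptors. The receptor of hCG was thus among those at 0. GPHA2, an alpha subunit of thyrostimulin, and TSHR, the thyrotropin receptor, were tested, with no call and overlapping groups. GPHA2 was above 0 in 2 of 6 libraries.

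Genes of the syncytiotrophoblast were then counted, since this is the tissue in which hCG is made. Of 24 such genes, 10 were listed at 0 in all libraries (30999 of 62443 over the series), and 4 reached the minimum for testing. The 4 were GDF15, a stress-induced cytokine, SDC1, a cell surface proteoglycan, PGF, placental growth factor, and TFPI2, a protease inhibitor. None of the 4 was called and none had separate groups, and their median log2 difference was 0.19, against -0.24 over all genes tested. Below the minimum, 2 genes had separate groups. The shares over all genes cover tested genes only, so none stands beside this count, and nothing is read from it. INSL4, a placental insulin-like peptide, was at 0.220, 0.0302 and 0.0603 FPKM in Con and listed at 0 in GLUP. HSD17B1, an estrogen-forming enzyme, was listed at 0 in Con and at 0.0988, 0.0577 and 0.0540 FPKM in GLUP. The placental lactogen gene CSH1 and the placental steroid enzyme gene HSD3B1 were at 0 throughout. Among genes of the trophoblast lineage, the keratin KRT7 was at 5.24 to 7.78 FPKM, with overlapping groups, while GATA3, TFAP2C and ELF5 were at most 0.177, 0.0800 and 0.0423 FPKM. The summed FPKM of 4 pituitary marker genes was at most 0.0521, that of 3 blood marker genes was at most 0.0394, and the endothelial cadherin CDH5 was at 0.

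Factors known to act on the promoters of CGA or the CGB genes were compared between the groups. Of 18, 17 were above 0 and 11 were tested, with 0 called, 8 lower in mean and a median log2 difference of -0.23, next to -0.24 over all genes. GCM1, a factor of syncytiotrophoblast formation, was listed at 0 in all libraries. MSX2, a homeobox repressor, was the only 1 of the 11 with GLUP values wholly below Con, against 17.4% of all genes tested. It was at 2.85, 2.24 and 2.07 FPKM in Con and at 1.68, 1.45 and 1.33 FPKM in GLUP (log2 difference -0.64, unadjusted p 0.0730, adjusted p 0.336, limma). After GC and length trends were removed its log2 difference was -0.32. Its part in the CGB values was not tested.

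Finally, CGB5 was set beside the other genes that the study singled out as TEAD targets. The study, in the account of its RNA-sequencing, described these genes, CGB5 among them, as lowered in GLUP-treated cells. It lists several RNA-sequencing sets, and which of them the statement rests on is not given in the sources used here. As it may be this set, a lower value here is not counted as independent evidence. Genes were called as changed in the study's own analysis, whereas the fit here called 0. CCN1, a matricellular protein, was at 2.00, 1.42 and 1.61 FPKM in Con and at 0.524, 0.797 and 0.407 FPKM in GLUP. CCN2, a protein of the same family, was at 0.526, 1.00 and 0.202 FPKM in Con and at 0.160, 0.0811 and 0.118 FPKM in GLUP. AXL, a receptor tyrosine kinase, was at 19.3, 21.9 and 8.80 FPKM in Con and at 6.35, 5.74 and 3.29 FPKM in GLUP. In all 3 genes the GLUP values lay wholly below the Con values, as in 17.4% of all genes tested. The log2 differences were -1.42 for CCN1, -1.45 for CCN2 and -1.63 for AXL, with adjusted p of 0.248, 0.275 and 0.255 (limma). CCNA2, the cyclin of S phase, had overlapping groups (log2 difference 0.13, adjusted p 0.858, limma). Among these 5 genes CGB5 alone had GLUP values wholly above Con, at the lowest mean FPKM of the 5. Over all genes tested 6.61% lay wholly above, and over the 1575 genes richest in GC 14.3%. CGB5 reached the minimum for testing through the GLUP libraries alone. CGB8, with the same coding sequence, had overlapping groups. The direction of CGB5 was opposite to the one the study described, and CCNA2 was not lower either. Neither difference passed the adjusted threshold, and nothing about the targets is read from them.

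The TEAD factors and cofactors themselves gave 0 calls among 8 tested genes, with a median log2 difference of 0.30. VGLL4, the cofactor after which the peptide was modelled, was at 0.676, 0.733 and 1.23 FPKM in Con and at 1.91, 1.54 and 2.03 FPKM in GLUP. Its groups, alone among the 8, did not overlap (log2 difference 1.01, unadjusted p 0.0167, adjusted p 0.275, limma). Over all genes tested, 6.61% lay wholly above Con in GLUP. TEAD4 was at 1.71, 0.226 and 2.45 FPKM in Con and at 1.46, 1.36 and 1.14 FPKM in GLUP, with overlap.

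The genes most like the CGB sum were named by the root mean square difference of their centred log2 values over the 6 samples. They were TMED3 (0.0802), ESAM (0.0995), CLK3 (0.102), NOS3 (0.104) and RILP (0.106), compared with a median of 0.967 over 15796 genes. TMED3, a protein of vesicle transport, was at 20.1, 6.11 and 23.9 FPKM in Con and at 27.8, 27.5 and 19.2 FPKM in GLUP. Each of the 5 was lowest in Con replicate 2, as was the CGB sum, which follows from how they were chosen. ESAM was listed at 0 in that library and was at most 0.360 FPKM. Their GC content was between 55.9% and 66.9%.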

How the data were processed

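RNA-sequencing libraries of HGC-27 cells, 3 Con and 3 GLUP, were grouped by their titles. The authors deposited 1 table of FPKM values. The submitters' processing notes name HISAT2, Cufflinks, RSEM and GRCh38.p10, with no versions or roles, whereas the gene identifiers carry suffixes of a GENCODE annotation lifted to GRCh37. How reads of identical copies were shared out is not given in the sources used here. Because FPKM divides by a library's own total, abundant genes move the others, and no counts can be read from it.

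The table has 62492 rows, of which 49 pseudoautosomal copies (all at 0) were summed with their counterparts. Symbols came from a name table (62162 genes matched), and positions, canonical transcript lengths and their GC content from GENCODE release 44 lifted to GRCh37. Among tested genes no pair of libraries shared a value above 0, and each was counted as a separate sample. Differences are group means of log2(FPKM + 0.1), GLUP minus Con, for the 15802 genes whose mean reached 0.1 FPKM. They were tested with limma 3.58.1 (lmFit, eBayes with trend, R 4.3.3), two-sided, without covariates. Benjamini-Hochberg adjustment covered every gene tested, with a threshold of 0.05. Sums of copies were added as rows. The fit was tested on simulated data. Single values were also compared by the exact permutation test, whose smallest p is 0.1. The common step was the value of FPKM times length, among low values of single-transcript genes, near which (within 1%) the largest share of values lay, 3.06% to 4.46% per library.

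The members and all lists were chosen with earlier results of these data known. Named genes were the 8 members, list genes past the threshold or, where none passed, those with separate groups (at most 5 a list), the TEAD targets singled out by the study, and the 5 genes most like the sum. RUVBL2, FTL, TEAD4, the cell type markers and the other genes of the hormone and trophoblast lists were named after their values were seen. The alternatives tried were a pseudocount of 1 or 0.01, a minimum of 1 FPKM or none, 4 scalings, 2 variance models, removal of GC and length trends, the replicate block, leaving out each library, and sums of fewer copies. The sum without CGB1 was chosen after seeing the data. Python 3.11.15, pandas 2.3.3, numpy 2.4.6 and matplotlib 3.10.9 were used.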

Additional observations from a re-analysis of the deposited data

How the results depend on the processing

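No call changed for any of the 6 CGB genes: 0 passed an adjusted p under 0.05 in any setting in which they were tested. CGA and LHB, listed at 0 throughout, could not be tested in any. CGB2 and CGB5 kept their direction, at 0.38 to 2.95 and 0.40 to 3.04 over the alternatives. When 1 library was left out they were at 1.22 to 1.89 and 1.27 to 2.02 (adjusted p of CGB5 0.0583 without Con replicate 3, up to 0.563, limma). Their groups did not overlap, so leaving out a library or changing the pseudocount, minimum, variance model or block could not reverse them. Only the scalings and the removal of GC and length trends could have done so. The sum of the 6 genes also kept its direction, at 0.25 (GC and length trend removed) to 0.96 (upper quartile scaling) over the alternatives. It ran from 0.04 to 1.01 with 1 library left out. The sum of CGB3, CGB5 and CGB8 was at 1.05, and with CGB7 added at 0.75. Without CGB1, chosen after seeing the data, the sum was 1.01. The other copies reversed. Once GC and length trends were removed, alone or with the replicate block, the log2 difference was -0.088 for CGB1, -0.32 for CGB3, -0.41 for CGB7 and -0.34 for CGB8, and with a pseudocount of 0.01 it was -0.47 for CGB3 and -0.38 for CGB8. When 1 library was left out it ran from -0.37 to 0.57 for CGB1, -0.034 to 0.65 for CGB3 (under the minimum without GLUP replicate 2), -0.73 to 0.54 for CGB7, -0.39 to 0.66 for CGB8 and -0.12 to 0.35 for CCNA2. The cause was not tested. The number of genes past the threshold was 1 with robust eBayes, 2 after removal of GC and length trends, and 0 to 1 when 1 library was left out (1 without Con replicate 3, GLUP replicate 1 or GLUP replicate 3). Replicate numbers did not pair samples (correlations of deviations 0.038, -0.026 and -0.089), and with the replicate block the sum was 0.66 (adjusted p 0.540), with 0 genes called. Genes higher in GLUP were 1114 of 2321 with an unadjusted p under 0.05 by trimmed mean, 1131 of 2323 by quantiles, 1210 of 2334 by median centring and 950 of 2070 after removal of GC and length trends. With a minimum of 1 FPKM, CGB1 and the sum alone had values. The read depth is unknown, and most copies lie within a few steps of 0.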
